A study of Homo sapiens with 11 samples.

Results

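The glucocorticoid receptor gene NR3C1 and 6 coregulator genes were followed after transfection of a microRNA (miRNA) into 2 human cancer cell lines. The coregulators were the corepressor genes NCOR1, SIN3A and TBL1XR1 and the coactivator genes NCOA1, NCOA2 and NCOA3. These 7 genes were chosen by name, with earlier results of these data known. All 7 had a row among the 31325 rows of the data, each row holding a single value per array for a gene symbol. RNA was hybridised to 11 Illumina BeadChip arrays. MDA-MB-231 breast cancer cells received miR-365a-3p (3 arrays) or a control miRNA (3 arrays), and SKOV3 ovarian cancer cells received miR-365a-3p (3 arrays) or a control miRNA (2 arrays). The labels name the ovarian line SKOV3, whereas the study's text speaks of its subline SKOV3.ip1. The sample labels give 48 h of treatment for every array, whereas the description of the series gives 24 h. The labels name no glucocorticoid treatment in any group. Nothing states that the arrays of a group came from separate cultures, so the p-values measure the spread between these arrays, which may be technical.

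The glucocorticoid receptor is a hormone-activated transcription factor held in the cytoplasm by Hsp90 and its co-chaperones until cortisol or a synthetic steroid binds it. On DNA it recruits coactivators of the p160 family, encoded by NCOA1, NCOA2 and NCOA3, which in turn bring in histone acetyltransferases and methyltransferases. The corepressors act in the opposite way: NCOR1 and its partner TBL1XR1 form a complex with the histone deacetylase HDAC3, and SIN3A is the scaffold of a separate complex built around HDAC1 and HDAC2.

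The miRNA itself is shown because it is the agent whose effect was measured, with its seed, bases 2 to 8, in capitals. RefSeq (GRCh38.p14) places it at chr16:14309340-14309361 on the plus strand, and the identical mature sequence of miR-365b-3p lies at chr17:31575478-31575499, also on the plus strand.
hsa-miR-365a-3p: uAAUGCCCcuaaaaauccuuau

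Promoters were taken from RefSeq for the 6 of the 7 genes that its table held under these symbols, all except NCOA2. The windows printed here are the 250 bases before the furthest upstream start of SIN3A and of NCOA3, the genes that were lower with miR-365a-3p in both cell lines under every setting tried. Capitals mark GC boxes, GGGCGG or its reverse complement CCGCCC, and both sequences read 5′ to 3′ along the gene. The SIN3A window lies at chr15:75455816-75456065 on the minus strand, and the NCOA3 window at chr20:47501637-47501886 on the plus strand (GRCh38.p14).
SIN3A: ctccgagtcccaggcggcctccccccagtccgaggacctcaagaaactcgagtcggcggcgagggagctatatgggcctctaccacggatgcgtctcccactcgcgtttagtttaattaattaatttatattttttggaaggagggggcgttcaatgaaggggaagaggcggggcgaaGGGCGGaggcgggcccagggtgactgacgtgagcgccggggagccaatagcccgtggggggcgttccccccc
NCOA3: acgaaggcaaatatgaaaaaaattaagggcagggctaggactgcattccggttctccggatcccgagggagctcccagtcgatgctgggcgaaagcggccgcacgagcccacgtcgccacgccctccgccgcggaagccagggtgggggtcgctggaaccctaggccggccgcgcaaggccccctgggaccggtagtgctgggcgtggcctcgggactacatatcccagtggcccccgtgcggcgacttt

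The share of G and C was 62% for SIN3A and 66.4% for NCOA3. Over 35114 promoter windows of the same length the median was 58% and the upper quartile 68%, so both lay between these. They held 21 and 25 CpG dinucleotides, beside a median of 11. The SIN3A window had 1 GC box and the NCOA3 window had 0, and 42.64% of all windows held at least 1 on either strand. Of the 7 annotated starts of NR3C1, 5 had a GC box, and the base composition of these windows ran from 32.8% to 82% G and C. AGAACA, a motif of glucocorticoid receptor binding sites, was found on neither strand in any window of the 6 genes and in 12.39% of all windows. These matches describe the letters of the windows only.

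All values are log2 signals after quantile normalization of the deposited columns, which makes the 11 arrays share a distribution with a median of 7.38, a 60th percentile of 7.43 and a 75th percentile of 7.80. Most rows therefore lay in a narrow band at the low end, where differences are compressed, so that fold changes of dim genes are likely to be too small. Before this step the upper quartile of the MDA-MB-231 arrays averaged 7.62 ± 0.051 (SD, n = 3) after miR-365a-3p and 7.91 ± 0.037 (n = 3) in the controls. For SKOV3 it averaged 7.74 ± 0.065 (n = 3) and 8.01 ± 0.043 (n = 2), so the treated arrays were the lower ones in both lines. This difference moves with the treatment, and its part in the results was not tested. Replicate arrays of a group correlated at 0.974 to 0.997 across genes. Of the markers, ERBB2 had a mean of 7.61 in control MDA-MB-231 cells and 10.9 in control SKOV3 cells, and EPCAM 7.63 and 10.4. KRT8, also taken as a marker of SKOV3, was at 9.20 and 10.2, and KRT18 was at 8.01 in MDA-MB-231 and at 7.90 in SKOV3, against its label, while the mesenchymal genes VIM, CD44 and AXL had means from 10.5 to 13.8 in the controls of both lines. SPARC, taken as a marker of MDA-MB-231, was at 7.29 there and at 8.52 in SKOV3, and WT1 was at 7.37 or below in all 4 groups. The leukocyte, endothelial and liver genes PTPRC, CD3E, PECAM1 and ALB did not exceed 7.48 in any group mean.

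In MDA-MB-231 cells 6 of the 7 genes fell with miR-365a-3p at a Benjamini-Hochberg adjusted p under 0.05 over all rows (limma), and none rose. Over the whole data 11.7% of rows fell and 14.4% rose in that comparison. The 7 genes were chosen with earlier results of these data known, so their counts beside these shares are a description only. In SKOV3 cells SIN3A, NCOA1 and NCOA3 fell and none of the 7 rose, all 7 values being below 0 in both lines, beside 7.11% of all rows that fell and 7.25% that rose. Among rows whose mean over the 11 arrays lay in the range of the 6 genes other than NCOA2 (7.48 to 8.23), 25.4% fell in MDA-MB-231 and 16.5% in SKOV3. Of these 6153 rows, 1563 fell and 1780 rose in MDA-MB-231, and 1016 fell and 761 rose in SKOV3. The median log2 fold change of the 7 genes was -0.38 in MDA-MB-231 and -0.33 in SKOV3, beside 0.0064 and 0.0066 over all rows. All treated arrays lay below all controls for 6 of the genes in MDA-MB-231 and for all 7 in SKOV3, and 17% and 18.2% of all rows showed the same separation. SKOV3 miR-365a-3p replicate 1 was the lowest treated array of its line for each of the 7 genes. Its upper quartile before normalization was 7.67, beside 7.74 and 7.80 in replicates 2 and 3. The 7 genes share these arrays, so their values are not separate observations. In bulk RNA, fewer cells that express a gene and less RNA per cell cannot be told apart. The rule that merged probes into a row is not stated, so a row cannot be tied to a transcript isoform.

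**Figure D1:**
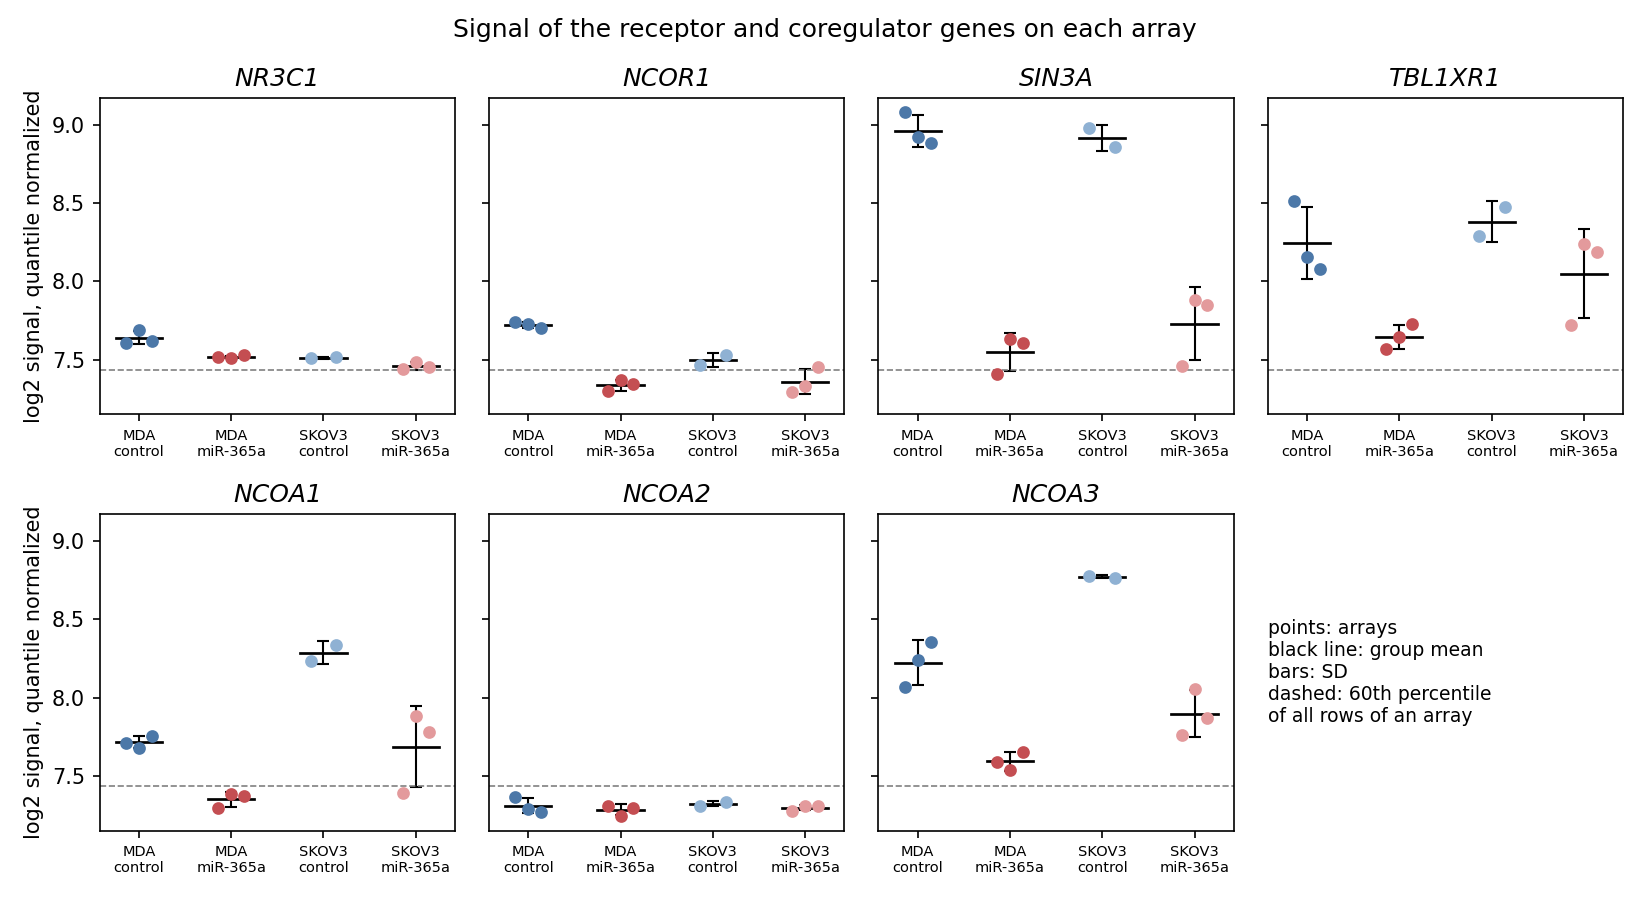
Each panel plots 1 gene, with log2 signal after quantile normalization on the y axis and the 4 groups on the x axis (points, arrays; black lines, group means; bars, SD; dashed line, the 60th percentile of an array at 7.43). SIN3A drops from means of 8.96 and 8.91 in the controls to 7.55 and 7.73 with miR-365a-3p, whereas NCOA2 stays below the dashed line on all 11 arrays.

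NR3C1, the receptor, had a log2 signal of 7.61, 7.69 and 7.62 on the control arrays of MDA-MB-231 and of 7.52, 7.51 and 7.53 on the miR-365a-3p arrays. In SKOV3 it was 7.51 and 7.52 on the control arrays and 7.44, 7.49 and 7.45 with miR-365a-3p. The groups did not overlap in either line, but all 11 values lay between the 60th and the 75th percentile of an array, close to the low end of the scale. In MDA-MB-231 the receptor fell by 0.12 on the log2 scale (SE 0.025, adjusted p = 0.00593 by limma), a 1.09-fold decrease. In SKOV3 the log2 fold change was -0.054 with a 95% interval from -0.12 to 0.0086 (adjusted p = 0.288). The size depended on the scaling: on the deposited values without further normalization it was -0.28 in MDA-MB-231 and -0.19 in SKOV3, and the latter then passed the test (adjusted p = 0.0106). With each array centred on its median the values were -0.25 and -0.15 (adjusted p = 0.0303 in SKOV3).

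Of the corepressors, NCOR1, the large platform protein that contacts unliganded receptors, was tightly grouped in MDA-MB-231. Its log2 signal was 7.74, 7.72 and 7.70 on the control arrays and 7.30, 7.37 and 7.34 with miR-365a-3p. All 3 treated arrays were below the 60th percentile, and the groups lay well apart. NCOR1 fell by 0.38 (SE 0.040, adjusted p = 0.000224 by limma), a 1.31-fold decrease to a signal at the low end. In SKOV3 the values were 7.46 and 7.53 in the controls and 7.30, 7.33 and 7.45 with miR-365a-3p. The third treated array nearly reached the lower control, and the log2 fold change of -0.14 (SE 0.045) did not pass the test (adjusted p = 0.0857). It did pass on the deposited values (-0.24, adjusted p = 0.00511), with centring on the median (-0.20, adjusted p = 0.0150), with cyclic loess within each line (adjusted p = 0.0371) and without SKOV3 miR-365a-3p replicate 3 (adjusted p = 0.0115).

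TBL1XR1 encodes a WD40-repeat subunit of the NCoR complex that takes part in the exchange of corepressors for coactivators. Its log2 signal was 8.51, 8.15 and 8.08 on the control arrays of MDA-MB-231 and 7.57, 7.64 and 7.73 with miR-365a-3p. The groups did not overlap, although the first control array stood above the other two. TBL1XR1 fell by 0.60 (SE 0.15, adjusted p = 0.0179 by limma), and this call was lost without MDA-MB-231 miR-365a-3p replicate 1 (adjusted p = 0.0628) or replicate 2 (0.0528), or without control replicate 1 (-0.47, adjusted p = 0.0559). In SKOV3 it was 8.29 and 8.47 in the controls and 7.72, 8.24 and 8.19 with miR-365a-3p. Only replicate 1 of the treated arrays was far from the controls. The log2 fold change was -0.33 with a 95% interval from -0.72 to 0.054 (adjusted p = 0.290), and it was -0.17 without that array. On the deposited values it was -0.63 and passed the test (adjusted p = 0.0375).

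SIN3A, the scaffold that ties HDAC1 and HDAC2 to DNA-binding repressors, showed the largest change of the 7 genes in both cell lines. Its log2 signal was 9.08, 8.92 and 8.88 on the control arrays of MDA-MB-231 and 7.41, 7.64 and 7.61 with miR-365a-3p. In SKOV3 it was 8.98 and 8.85 in the controls and 7.46, 7.88 and 7.85 with miR-365a-3p. The control means of the 2 lines lay at percentiles 88.6 and 88.3 of all rows, and every treated array was far below the lowest control of its line. SIN3A fell by 1.41 in MDA-MB-231 (SE 0.12, adjusted p = 6.43e-05 by limma), a 2.66-fold decrease, and fell by 1.18 in SKOV3 (SE 0.13, adjusted p = 0.000589), a 2.27-fold decrease. Both calls held under all 18 alternative settings. Without SKOV3 miR-365a-3p replicate 1, the lowest of its group for SIN3A, the value in SKOV3 was -1.05.

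Of the coactivators, NCOA1 (SRC-1), the founding member of the p160 family, had a log2 signal of 7.71, 7.68 and 7.76 on the control arrays of MDA-MB-231 and of 7.30, 7.39 and 7.37 with miR-365a-3p. In SKOV3 it was 8.23 and 8.34 in the controls and 7.39, 7.88 and 7.78 with miR-365a-3p. The groups did not overlap in either line, and the spread of the treated SKOV3 arrays, with an SD of 0.26, came from replicate 1. NCOA1 fell by 0.36 in MDA-MB-231 (SE 0.11, adjusted p = 0.0360 by limma) and fell by 0.60 in SKOV3 (SE 0.12, adjusted p = 0.0110). The size of the change in MDA-MB-231 was stable, at -0.38 to -0.34 with any array left out, and its call was not. The MDA-MB-231 call was lost without any single MDA-MB-231 array and without either SKOV3 control array, which enter the shared estimate of the spread (adjusted p from 0.0538 to 0.110), and without SKOV3 miR-365a-3p replicate 1 the adjusted p was 0.000474. The SKOV3 call was lost without SKOV3 control replicate 1 (adjusted p = 0.0521) or 2 (0.105) and when SKOV3 was fitted alone (0.111).

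NCOA2 (SRC-2, TIF2) was at the low end throughout, with log2 signals of 7.36, 7.29 and 7.27 on the control arrays and 7.31, 7.24 and 7.30 on the miR-365a-3p arrays of MDA-MB-231. In SKOV3 they were 7.31 and 7.34 in the controls and 7.28, 7.31 and 7.31 with miR-365a-3p. The groups overlapped in MDA-MB-231, and in SKOV3 the highest treated array almost reached the lower control. The log2 fold change was -0.025 in both lines, with 95% intervals from -0.090 to 0.041 and from -0.098 to 0.048 (adjusted p = 0.657 and 0.780 by limma). A fall of a transcript whose signal does not rise above the low end may not be detectable on these arrays, and a small rise may be compressed.

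NCOA3 (SRC-3, AIB1), the p160 coactivator known for its amplification in breast cancer, had a log2 signal of 8.07, 8.24 and 8.36 on the control arrays of MDA-MB-231 and of 7.59, 7.54 and 7.65 with miR-365a-3p. In SKOV3 it was 8.78 and 8.77 in the controls and 7.76, 8.06 and 7.87 with miR-365a-3p. Neither line had an overlap between the groups. NCOA3 fell by 0.63 in MDA-MB-231 (SE 0.086, adjusted p = 0.000855 by limma), a 1.55-fold decrease, and fell by 0.87 in SKOV3 (SE 0.096, adjusted p = 0.000623), a 1.83-fold decrease. Both calls held under all 18 alternative settings.

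An exact two-sided permutation test shuffled the treatment inside each line, on the mean of the 2 differences, over all 200 arrangements, and can give no p below 0.005. It gave this smallest p for SIN3A, NCOA1 and NCOA3. For the receptor and NCOR1 it gave an exact p of 0.01, for TBL1XR1 0.015 and for NCOA2 0.22. For the genes other than NCOA2 all treated arrays lay below all controls in both lines. That separation by itself makes the observed difference the lowest of the 200 arrangements, so these p-values add no separate evidence. They are not adjusted, and the test was not run over all rows. An exact test within MDA-MB-231 alone, with 3 arrays against 3, cannot go below 0.1.

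**Figure D2:**
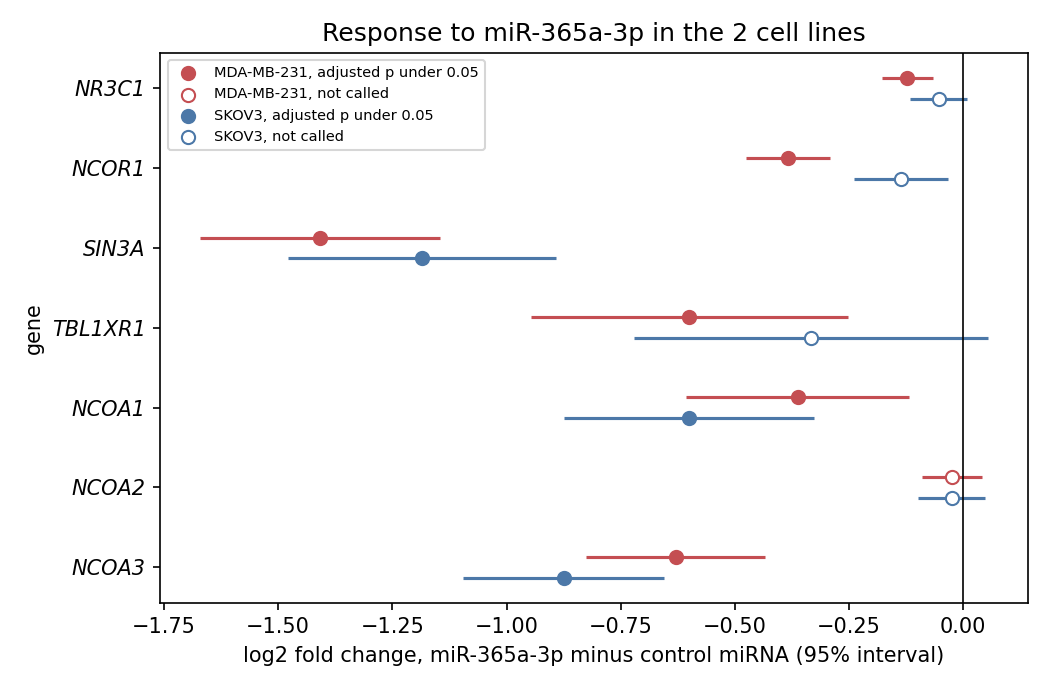
Log2 fold changes of miR-365a-3p against control miRNA (x axis) are plotted for each of the 7 genes (y axis), with 95% intervals of the limma fit as lines, MDA-MB-231 in red and SKOV3 in blue, and filled points for an adjusted p under 0.05. All values lie below 0, from -1.41 for SIN3A in MDA-MB-231 to -0.025 for NCOA2 in both lines, and the open points are NCOA2 in both lines and NR3C1, NCOR1 and TBL1XR1 in SKOV3.

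The treatment effects of the 2 cell lines were compared by the difference itself, MDA-MB-231 minus SKOV3. None of the 7 genes passed this test at an adjusted p under 0.05 (limma), and NCOR1 was the single gene with an unadjusted p under 0.05. Over all rows 1.3% had a lower and 1.24% a higher value in MDA-MB-231 at an adjusted p under 0.05. An unadjusted p under 0.05 was found for 4012 of the 31325 rows. Among the 6153 rows with means from 7.48 to 8.23 it was found for 1747, so 1 gene of 7 does not stand out. For NCOR1 the difference was -0.25, with a 95% interval from -0.39 to -0.11 (adjusted p = 0.0832), and without SKOV3 miR-365a-3p replicate 1 it was -0.28 and passed (adjusted p = 0.0393). Its treated means lay at the low end, at percentiles 36.5 in MDA-MB-231 and 46.4 in SKOV3, and its control means were 7.72 and 7.50. NCOR1 thus had less room to fall in SKOV3, and the part of this in the difference was not tested. For SIN3A the difference was -0.22 (interval -0.62 to 0.17), for TBL1XR1 -0.27 (-0.79 to 0.25) and for NR3C1 -0.068 (-0.15 to 0.016). The coactivators had differences of the opposite sign, 0.24 for NCOA1 (-0.13 to 0.61) and 0.25 for NCOA3 (-0.049 to 0.54). Apart from that of NCOR1, these intervals include 0 but are wide beside the effects themselves, so effects of different size in the 2 lines cannot be told from equal ones for these genes.

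The levels of the 2 lines without miR-365a-3p were read from the control arrays. Over all rows 8.34% were lower and 7.76% higher in control MDA-MB-231 than in control SKOV3 cells at an adjusted p under 0.05. The receptor was higher in MDA-MB-231 by 0.13 (adjusted p = 0.0125 by limma), and NCOR1 by 0.23 (adjusted p = 0.00817). The coactivators NCOA1 and NCOA3 were lower in MDA-MB-231, by log2 differences of -0.57 (adjusted p = 0.0110) and -0.55 (adjusted p = 0.00424). SIN3A (0.045), TBL1XR1 (-0.13) and NCOA2 (-0.015) did not pass the test. The difference of the receptor was lost on the deposited values (adjusted p = 0.146), with centring (0.0949), with an intensity trend (0.0688) and without SKOV3 control replicate 1 (0.0954) or 2 (0.0758). That of NCOR1 was lost without SKOV3 control replicate 1 (adjusted p = 0.0892), and that of NCOA1 without replicate 1 (0.0508) or 2 (0.0984), while that of NCOA3 held under all 15 alternative settings.

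The order of levels over the 4 groups followed the treatment for SIN3A. For SIN3A both controls lay above both treated groups, and within each pair the lines differed by less than the spread between replicates or close to it (8.96 ± 0.10 and 8.91 ± 0.085 in the controls, 7.55 ± 0.12 and 7.73 ± 0.23 with miR-365a-3p, in MDA-MB-231 and SKOV3). For NCOA3 the order was control SKOV3 (8.77 ± 0.0083), control MDA-MB-231 (8.22 ± 0.14), treated SKOV3 (7.90 ± 0.15) and treated MDA-MB-231 (7.59 ± 0.060). NCOA1 was highest in control SKOV3 (8.29 ± 0.073), not different beyond its spread between control MDA-MB-231 (7.71 ± 0.039) and treated SKOV3 (7.69 ± 0.26), and lowest in treated MDA-MB-231 (7.35 ± 0.048). TBL1XR1 had its lowest mean in treated MDA-MB-231 (7.65 ± 0.077), while the other three groups, with means from 8.05 to 8.38, differed by little more than their SDs. For NR3C1 the order was control MDA-MB-231 (7.64 ± 0.044), treated MDA-MB-231 (7.52 ± 0.0074), control SKOV3 (7.51 ± 0.0060) and treated SKOV3 (7.46 ± 0.025), and the middle pair did not differ beyond its spread. NCOR1 was highest in control MDA-MB-231 (7.72 ± 0.019), then control SKOV3 (7.50 ± 0.045), and its treated groups (7.36 ± 0.081 in SKOV3 and 7.34 ± 0.035 in MDA-MB-231) did not differ beyond their spread. The 4 means of NCOA2 ran from 7.28 to 7.32, with no neighbours apart by more than their SDs.

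The wider pathway was read from lists of related genes, all of whose symbols were found. They are described by counts and medians, and the background for each count at an adjusted p under 0.05 is the share of all rows given above. That share includes the many rows at the low end. Among rows with means over the 11 arrays from 7.48 to 8.23, larger shares fell, 25.4% in MDA-MB-231 and 16.5% in SKOV3. Of these 6153 rows, 1780 rose beside 1563 that fell in MDA-MB-231, and 761 rose beside 1016 that fell in SKOV3. This range was set by the means of the genes followed and was not matched to each list. Of 9 genes of the NCoR corepressor complex, including NCOR1 and TBL1XR1, 4 fell and 0 rose in MDA-MB-231 and 2 fell and 0 rose in SKOV3, with median log2 fold changes of -0.019 and -0.14. At an unadjusted p under 0.05 by limma, 0 genes of this list rose in either line. Of all 31325 rows, 10551 in MDA-MB-231 and 7735 in SKOV3 had such a p, rising and falling rows together. The rising rows alone were not counted at that p. TBL1X, the close relative of TBL1XR1 in the same complex, fell by 1.24 in MDA-MB-231 (SE 0.11, adjusted p = 9.79e-05 by limma) and fell by 1.12 in SKOV3 (adjusted p = 0.000609). On the deposited values the count in SKOV3 was 6 of 9 and with centring it was 5. The median in MDA-MB-231 was -0.29 and -0.26 under these settings and ran from -0.13, without control replicate 2, to -0.0077, without miR-365a-3p replicate 1, and that in SKOV3 was -0.29 and -0.25.

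Of 20 genes of the SIN3 complex, including SIN3A, 8 fell and 5 rose in MDA-MB-231 and 4 fell and 2 rose in SKOV3. The split in MDA-MB-231 was 11 lower and 2 higher on the deposited values, 10 and 2 with centring, 8 and 2 with cyclic loess and 7 and 2 without control replicate 3. SAP130, a SIN3A-associated protein, fell by 0.82 in MDA-MB-231 (SE 0.046, adjusted p = 1.11e-05 by limma) and fell by 0.89 in SKOV3 (adjusted p = 2.45e-05). The deacetylases HDAC1 and HDAC2 went in opposite directions. HDAC1 fell by 1.14 in MDA-MB-231 (adjusted p = 0.0129) and had a log2 fold change of -0.64 in SKOV3 (adjusted p = 0.239). HDAC2 rose by 0.91 in MDA-MB-231 (adjusted p = 0.00350) and rose by 0.66 in SKOV3 (adjusted p = 0.0444), a call that was lost in 8 of the 11 fits with an array left out (adjusted p from 0.0566 to 0.263), the exceptions being MDA-MB-231 control replicates 1 and 2 and SKOV3 miR-365a-3p replicate 3. The median of the list was -0.042 in MDA-MB-231 and 0.012 in SKOV3, and on the deposited values and with centring these were -0.23 and -0.19 in MDA-MB-231 and -0.19 and -0.16 in SKOV3. The SKOV3 median was also below 0 with cyclic loess (-0.031) and without SKOV3 miR-365a-3p replicate 2 (-0.048).

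Of 30 nuclear receptor coactivator genes, including NCOA1, NCOA2 and NCOA3, 16 fell and 4 rose in MDA-MB-231 and 12 fell and 0 rose in SKOV3, with medians of -0.31 and -0.15. At an unadjusted p under 0.05 by limma, 4 rose in SKOV3, beside 7735 of all 31325 rows that rose or fell there at such a p. SMARCA4, the BRG1 ATPase of the SWI/SNF chromatin remodelling complex, had group means of 10.5 in control and 8.02 in treated MDA-MB-231 cells. It fell by 2.49 there (SE 0.13, adjusted p = 9.07e-06 by limma) and fell by 2.27 in SKOV3 (adjusted p = 4.42e-05). CARM1, the arginine methyltransferase that p160 proteins recruit, fell by 1.96 (SE 0.22, adjusted p = 0.000321) and fell by 1.78 (adjusted p = 0.00188). NCOA6, a coactivator outside the p160 family, fell by 1.31 (adjusted p = 0.000869) and fell by 1.59 (adjusted p = 0.00119). The calls of these 3 genes held in both lines under all 18 alternative settings, and deposited values gave 20 lower and 1 higher in MDA-MB-231 and 15 lower and 0 higher in SKOV3. Without SKOV3 control replicate 1 or 2, 8 coactivators passed as lower in SKOV3. The medians were -0.52 and -0.33 on the deposited values and -0.49 and -0.29 with centring, and that in SKOV3 was -0.074 without SKOV3 miR-365a-3p replicate 1 and -0.24 without replicate 2.

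Of 18 chaperones and co-chaperones of the receptor, 4 fell and 3 rose in MDA-MB-231 and 1 fell and 4 rose in SKOV3, with medians of 0.0055 and 0.16. PTGES3 (p23), which stabilises the Hsp90 complex with the receptor, fell by 1.49 in MDA-MB-231 (adjusted p = 0.000543 by limma) and fell by 1.16 in SKOV3 (adjusted p = 0.00656, and 0.0590 without SKOV3 control replicate 1). HSP90AB1, the constitutive Hsp90, fell by 1.00 in MDA-MB-231 (adjusted p = 0.0160, and 0.0624 without control replicate 3) and had a log2 fold change of -0.71 in SKOV3 (adjusted p = 0.144, and 0.0276 without MDA-MB-231 miR-365a-3p replicate 1). TTC4, an Hsp90-binding protein, rose by 0.70 (adjusted p = 0.00155) and rose by 0.80 (adjusted p = 0.00287). Without MDA-MB-231 control replicate 3, 2 chaperones passed as lower in MDA-MB-231, and without SKOV3 control replicate 1, 0 did in SKOV3. The median in MDA-MB-231 turned to -0.0019 with cyclic loess and to -0.0015 without miR-365a-3p replicate 2, and was 0.062 with centring. That in SKOV3 was 0.039 with cyclic loess and 0.26 with centring.

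Of 32 genes known to be induced by glucocorticoids, 16 fell and 6 rose in MDA-MB-231 and 6 fell and 3 rose in SKOV3. The medians were -0.21 and -0.078. This list shares a gene with the chaperone list, which fell in MDA-MB-231 and is counted in both. MT2A, a metallothionein, fell by 1.55 in MDA-MB-231 (SE 0.18, adjusted p = 0.000432 by limma) and fell by 1.52 in SKOV3 (adjusted p = 0.00168). TIPARP, an ADP-ribosyltransferase, fell by 1.74 in MDA-MB-231 (adjusted p = 0.000297) and had a log2 fold change of -0.59 in SKOV3 (adjusted p = 0.118). MAP3K6, a stress-activated kinase, had -0.51 in MDA-MB-231 (adjusted p = 0.159, but 0.00565 with each line fitted alone and 0.00930 without SKOV3 miR-365a-3p replicate 1) and fell by 1.66 in SKOV3 (adjusted p = 0.00323). Other genes of the list went up. DUSP1 rose by 0.67 in MDA-MB-231 (adjusted p = 0.00118) and by 0.42 in SKOV3 (adjusted p = 0.0328). TSC22D3 rose by 0.33 in MDA-MB-231 (adjusted p = 0.00350) and by 0.27 in SKOV3 (adjusted p = 0.0278). The count of genes that fell in SKOV3 was 10 on the deposited values and with centring, and 3 without SKOV3 control replicate 1. The number that rose there was 1 on the deposited values and with centring, and 0 without either SKOV3 control array. The medians were -0.48 and -0.25 on the deposited values, -0.45 and -0.21 with centring, and -0.12 in SKOV3 with cyclic loess.

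Of 48 nuclear receptor genes, 27 had means below the 60th percentile of all rows in all 4 groups. In any group 60% of all rows lie below that percentile by definition. The share of all rows below it in all 4 groups was not counted, so the 27 are a description only. Of the 48, which include NR3C1, 9 fell and 4 rose in MDA-MB-231 and 4 fell and 2 rose in SKOV3. The medians were -0.0088 and -0.0060 and turned to 0.0028 and 0.0010 with centring. NR2F2 (COUP-TFII), an orphan receptor, fell by 1.13 in MDA-MB-231 (SE 0.072, adjusted p = 1.95e-05 by limma) and fell by 0.76 in SKOV3 (adjusted p = 0.000490). RXRA, the partner of many heterodimeric receptors, fell by 0.59 (adjusted p = 0.00196) and fell by 0.80 (adjusted p = 0.00154). PPARG, a receptor of lipid metabolism, rose by 0.49 (adjusted p = 0.00316) and rose by 0.51 in SKOV3 (adjusted p = 0.00846, and 0.0648 or 0.0656 without SKOV3 control replicate 1 or 2). The number that fell in SKOV3 was 12 on the deposited values and 8 with centring.

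**Figure D3:**
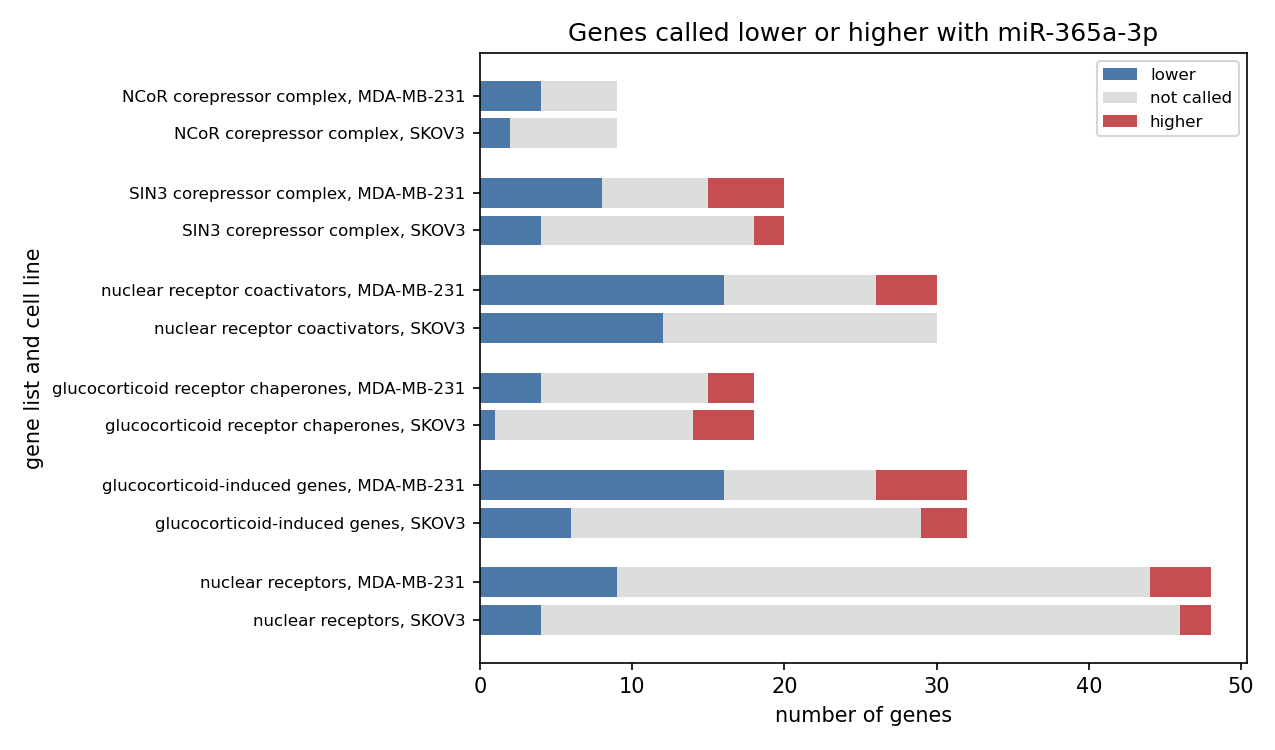
Bars give the number of genes (x axis) of each list called lower (blue), not called (grey) or higher (red) with miR-365a-3p in each cell line (y axis). The coactivator list has 16 lower and 4 higher of 30 in MDA-MB-231 and 12 lower and 0 higher in SKOV3.

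The rows whose pattern over the 11 arrays was most like that of NR3C1 were sought among 6850 rows with a mean log2 signal above 8, the 7 genes left out. By Pearson correlation they were PHLDA1 (r = 0.98), RUSC1 (0.978), MPP6 (0.973), TIPARP (0.964) and SGK1 (0.962), and 124 rows exceeded 0.9. These arrays share the 4 groups and the same normalization, so the coefficients are a description of the pattern. As in the receptor row, for likeness to which they were chosen, the group means of these 5 genes were highest in control MDA-MB-231 cells. TIPARP and SGK1, a serum- and glucocorticoid-regulated kinase, also belong to the list of glucocorticoid-induced genes. How many of the 124 or of the 6850 rows belong to that list was not counted, so this is a description only.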

How the data were processed

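mRNA was measured on 11 Illumina BeadChip arrays, with the 4 groups taken from the cell line and treatment in the labels. The authors amplified and biotin-labelled the RNA, applied the quantile normalization of lumi, and deposited log2 values with 1 row for each gene symbol. The version of lumi, the transformation before normalization, any background correction or detection filter and the rule that combined probes are not given in the sources used here, so a difference is log2 within these limits. The number of arrays limits the precision.

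The deposited columns did not share a distribution and were quantile normalized across the 11 arrays (limma 3.58.1, R 4.3.3). A model with 4 group means was fitted to all 31325 rows with lmFit and eBayes, with Benjamini-Hochberg adjustment over these rows and a threshold of 0.05. The fit was tested on simulated data. The treatment was also permuted within cell lines over all 200 arrangements (exact, two-sided). Columns without a sample numbered 0, and none was left out.

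Named are the 7 genes, from each list up to 3 further genes with the largest mean change among those called in at least 1 line, and the 5 rows most like NR3C1 by Pearson correlation. DUSP1 and TSC22D3 are named in addition, as glucocorticoid-induced genes that rose in both lines. The 7 genes and the lists were chosen with earlier results of these data known. The alternatives were the deposited values without further normalization, centring of each array on its median, cyclic loess within each line, each line fitted alone, a replicate block, rows above the median of the row means, an intensity trend with robust hyperparameters, and each array left out in turn. For the lists and the further named genes some of these were chosen after seeing the data. Protein lengths were not used here, and a search for target sites of the miRNA was not run. Genes of the lists that are not reported here by name are in the counts. Slide and scan information was not used here.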

Additional observations from a re-analysis of the deposited data

Results flagged for a closer look

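Of the 7 genes, none passed the test of a different response to miR-365a-3p in the 2 cell lines. Genes of the lists that passed are given here, by the test of the difference itself (MDA-MB-231 minus SKOV3, limma, adjusted over all rows). CEBPD, a transcription factor, had a difference of 0.62 (adjusted p = 0.00658; 0.52 in MDA-MB-231 and -0.095 in SKOV3) and passed in 15 of the 17 alternative settings that compare the lines. NR2C2 (TR4), an orphan receptor, had -0.19 (adjusted p = 0.00482; -0.26 in MDA-MB-231 and -0.068 in SKOV3) and passed in 16. Its control means were 7.62 in MDA-MB-231 and 7.43 in SKOV3, and its treated means were 7.36 in both lines. The acetyltransferase gene EP300 had 0.30 (adjusted p = 0.0228), with -0.17 in MDA-MB-231 and -0.47 in SKOV3, and passed in 9. Its control means were 7.49 in MDA-MB-231 and 7.77 in SKOV3, and its treated means 7.32 and 7.30. For NR2C2 and EP300 the treated groups of both lines lay at the low end of the scale. The room to fall therefore differed between the lines, and its part in these differences was not tested. FLII had -0.75 (adjusted p = 0.0233) and passed in 11. The coactivator genes NCOA7 (-0.71, adjusted p = 0.0448) and PPRC1 (-0.71, adjusted p = 0.0408) passed in 5 settings each, and the kinase gene SGK1 (-0.74, adjusted p = 0.0454) in 4. No group had the 4 arrays needed to test for a single array far from the others.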

How the results depend on the processing

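SIN3A and NCOA3 in both lines and NR3C1 and NCOR1 in MDA-MB-231 kept their direction and their call under all 18 alternative settings. Of the 7 genes, the number lower in SKOV3 was 3, and it was 6 on the deposited values and 5 with centring. Leaving out single arrays, it ran from 2 to 4, the number lower in MDA-MB-231 from 4 to 6, the number higher from 0 to 0 in both lines, the number with a difference between lines from 0 to 1, and the number that differ between the controls from 1 (without SKOV3 control replicate 1; 2 without replicate 2) to 4. Without either SKOV3 control array the other has no replicate and is assumed to vary like the other groups. Over all rows the calls in MDA-MB-231 (8174) ran from 6569 to 8678. Those in SKOV3 (4498) ran from 1775 without control replicate 2 and 2276 without replicate 1 to 5002, and were 2825 with each line fitted alone. Those for the difference between lines (796) ran from 301 to 1225 (482 without MDA-MB-231 miR-365a-3p replicate 2, and the highest without SKOV3 miR-365a-3p replicate 1) and for the control lines (5043) from 3023 to 5680, in each case with the lowest count without a SKOV3 control array. The share of calls that were lower was 44.8% in MDA-MB-231, 71.2% on the deposited values and 59.1% with centring. In SKOV3 it was 49.5%, 78.6% and 67.7%, and for the control lines 51.8%, 63.9% and 59.9%. The cause was not tested.

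Same-numbered arrays of a line deviated together at r from -0.12 to 0.23 across 6853 genes. Arrays with different numbers were not compared, so these values do not settle whether the numbers pair the samples. The study elsewhere numbers the SKOV3 controls 2 and 3 where the labels have 1 and 2, and if those numbers hold, the SKOV3 pairs used here and in the block are not the right ones. With the replicate block, 123 rows differed between lines, 4 of the 7 genes were lower in SKOV3, among them NCOR1 (-0.18, adjusted p = 0.0422), and 2 chaperones were lower there.

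For the lists in SKOV3, the number lower on the deposited values and with centring was 6 and 5 for the NCoR complex, 2 and 2 for the chaperones, 10 and 10 for the glucocorticoid-induced genes, and 12 and 8 for the nuclear receptors. Leaving out single arrays, the number lower in MDA-MB-231 ran from 3 to 4 for the NCoR complex, 6 to 8 for SIN3, 15 to 17 for the coactivators, 2 to 4 for the chaperones, 15 to 17 for the induced genes and 8 to 10 for the receptors. In SKOV3 it ran, in the same order, from 1 to 3 (1 without either control array), 3 to 4, 8 to 12, 0 to 2, 3 to 9 and 3 to 5. With SKOV3 fitted alone, the calls of HDAC2 (adjusted p = 0.126), TTC4 (0.0539), MAP3K6 (0.0618) and PPARG (0.0802) were lost there, and that of HDAC2 also with cyclic loess (0.133).

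Changes of sign were confined to values without a call. NCOA2 was 0.011 in MDA-MB-231 and 0.0045 in SKOV3 with centring, and -0.0022 for the difference between lines with cyclic loess. With arrays left out it ran from -0.043 to 0.0020 in MDA-MB-231, from -0.018 to 0.027 for the difference and from -0.042 to 0.0032 for the control lines. SIN3A in the control lines was -0.042 on the deposited values, -0.028 with centring and ran from -0.015 to 0.11 with arrays left out. NCOA7 in SKOV3 was -0.21 on the deposited values and -0.17 with centring. NCOA2 drops out of the rows above the median, cyclic loess within lines gives no value for the control lines, and the block leaves that contrast without an estimate.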
